A study of Arabidopsis thaliana with 27 samples.

Results

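Control24 hr and Control08 hr are the unheated plants of this series of Arabidopsis thaliana arrays, harvested at 2 times of day. Control24 hr plants were taken in the morning, 3 h after the onset of light, and Control08 hr plants in the afternoon, 11 h after it. The arrays were chosen by the sample group in the labels, and they are 15 of the 27 arrays of the series. Control24 hr comprised 9 arrays, with 3 arrays for each age of 18, 19 and 20 days, and Control08 hr comprised 6 arrays, with 3 arrays for each age of 18 and 19 days. All were wild-type plants of ecotype Columbia (Col-0) kept on agar medium with sucrose at 22 °C, with 16 h of light and 8 h of darkness a day, and none was heated at any time. The hours in the group names count from the hour at which other plants were moved to 38 °C, so the control groups served as references at the clock times of the treated plants. The remaining 12 arrays, with 3 arrays for each group, came from treated plants and enter only the last comparison. Heat08 hr plants were taken after 8 h at 38 °C and Heat24 hr plants after 1 day of it, both without a return to 22 °C. Plants of the groups Recovery08 hr and Recovery24 hr were kept at 38 °C for 1 day. They were then taken after 8 h and after 1 day back at 22 °C, respectively. The labels name the tissue as leaf and the methods as aerial parts, and whether an array pooled several plants is not given. Each value is therefore an average over all cells of the shoot, in which fewer cells of a type and less RNA per cell cannot be told apart.

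The circadian clock of plants is a loop of genes that switch each other on and off once a day. CCA1, a MYB transcription factor made around dawn, represses genes that act towards the evening, and among these are ELF3 and ELF4, whose proteins join in the evening complex and repress other clock genes in turn. In leaves the clock and the light together time photosynthesis, the storage of starch by day and its use by night, growth, and the readiness for cold.

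Transcript levels were compared on log2 of the MAS5 signal, a brightness per probe set on a linear scale, and a probe set was called where its adjusted p in limma was under 0.05 and the groups differed by at least 2-fold. Of 22746 probe sets, 981 (4.31%) were called higher in the morning and 897 (3.94%) higher in the afternoon. The signals of the 9 morning arrays and the 6 afternoon arrays did not overlap at all in 4209 probe sets (18.5%). With the adjusted p alone and no limit on the fold, 3590 probe sets (15.8%) were higher in the morning and 3998 (17.6%) in the afternoon. The differences were nearly balanced, with a median log2 difference of 0.01 and a median size of 0.32 over all probe sets. The largest of them were many times the threshold. Among bright probe sets, those whose mean reached 100 at the brighter clock time, 78 morning and 84 afternoon calls were at least 8-fold, and 12 and 20 were at least 32-fold. Of the calls, 259 higher in the morning and 150 higher in the afternoon were dimmer than this.

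The arrays of one clock time were alike and the 2 clock times stood apart. The correlation of log2 signals, over probe sets whose mean on the 15 arrays reached 100, was 0.980 to 0.986 among afternoon arrays, 0.968 to 0.989 among morning arrays and 0.865 to 0.887 between them. The first principal component held 76.6% of the variance of these probe sets and separated all morning arrays from all afternoon arrays. Over bright probe sets, the median SD of log2 signal between arrays was 0.15 in Control08 hr and 0.18 in Control24 hr. The tissue was checked by its markers with a named probe set. These were 1 of 8 listed for leaf, 2 of 8 for root and 3 of 6 for seed. RCA, which encodes Rubisco activase of leaves, gave signals of 25300 to 39314 on the 15 arrays, whereas the root hair expansins EXPA7 and EXPA18 reached at most 76.9 and the seed genes OLEO1, ABI3 and LEC2 at most 67.8, near the dim end of the array. None of these 5 genes passed the adjusted p between the clock times (0.134 to 0.854).

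**Figure D1:**
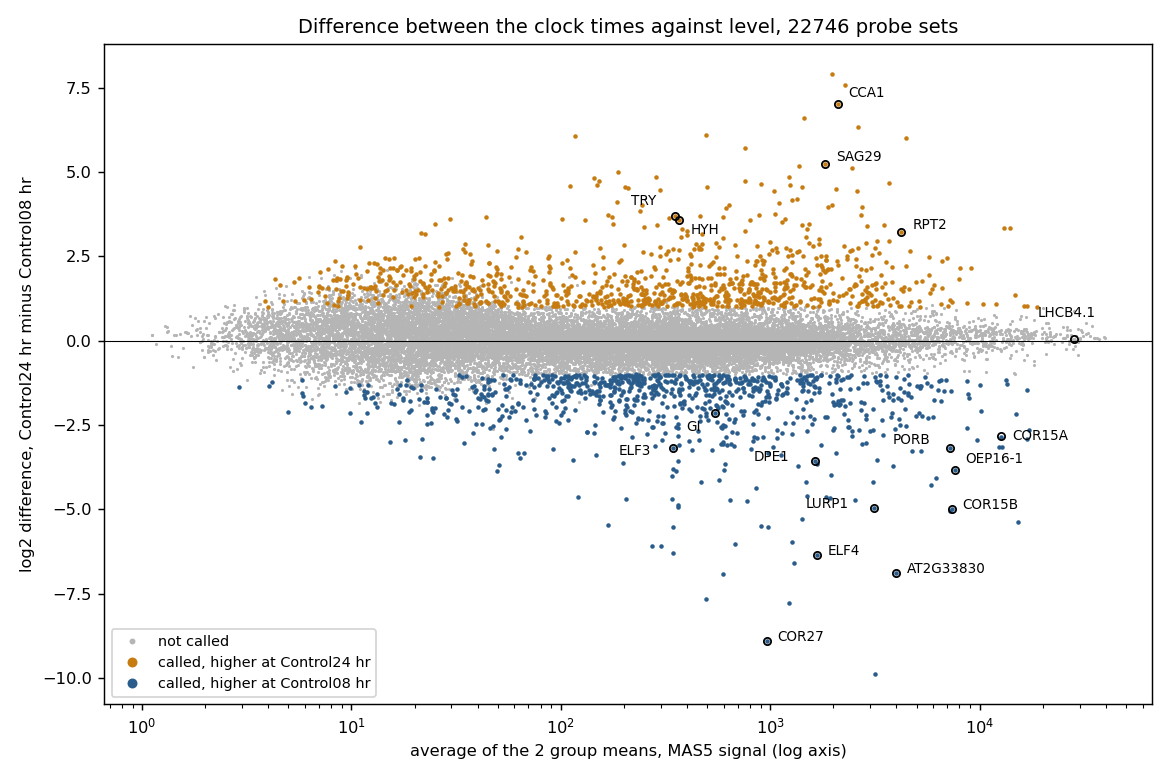
Log2 difference between Control24 hr and Control08 hr (y axis) against the average of the 2 group means on a log axis (x axis) for 22746 probe sets, where coloured points were called and circles mark named genes. Calls above 0 (981) and below 0 (897) are found at all levels, with CCA1 at 7.01 and COR27 at -8.91 far from the cloud, while the bright antenna gene LHCB4.1 lies near 0.

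A list of 16 clock genes of the morning and one of 19 clock genes of the afternoon and evening had 10 members with a named probe set between them. Of these 10, 6 were called and 7 did not overlap between the groups, where the shares over all probe sets were 8.26% and 18.5%. Of the 3 morning genes, all 3 were higher in the morning by the adjusted p and 1 was called. On the afternoon arrays CCA1 gave signals of 5.76, 36.2 and 76.9 (lowest, median and highest array), and on the morning arrays signals of 3542, 4071 and 4928. Every morning array was far above every afternoon array. The log2 difference was 7.01 with an SE of 0.42 (adjusted p = 3.81e-09), or 6.31 where 16 was added to each signal so that the dim afternoon values count for less. AT4G01280 rose from 184.4, 189.9 and 196.6 in the afternoon to 264.4, 310.6 and 351.8 in the morning, again without overlap, and its log2 difference of 0.70 (SE 0.0627, adjusted p = 4.02e-07) stayed below 2-fold. AT5G52660 gave 195.2, 220.9 and 269.5 against 265.1, 320.8 and 395.4, and here the groups overlapped, with a log2 difference of 0.53 (SE 0.118, adjusted p = 0.00246).

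Of the 7 afternoon and evening genes with a named probe set, 5 were called higher in the afternoon, 6 passed the adjusted p, and none was higher in the morning. Their median log2 difference was -3.17, against 0.01 over all probe sets. COR27, a gene under the control of cold and of the clock, gave signals of 1634, 1895 and 2223 in the afternoon and of 1.58, 4.6 and 8.99 in the morning. All morning arrays lay at the dim end of the scale, where values are poorly defined, and the afternoon arrays were well above it. The log2 difference was -8.91 (SE 0.302, adjusted p = 6.4e-12), and with 16 added to each signal it was -6.56, or 94.5-fold. AT4G33980 behaved alike, with 805.7, 982.5 and 1168 in the afternoon against 2.37, 3.81 and 33.1 in the morning and a log2 difference of -7.65 (SE 0.437, adjusted p = 2.19e-09), or -5.49 with the added 16.

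ELF4 had signals of 2877, 3274 and 3719 in the afternoon and of 22.6, 44.3 and 70.3 in the morning. The lowest afternoon array was thus far above the highest morning array, and the log2 difference was -6.34 (SE 0.221, adjusted p = 8.36e-12). Its partner ELF3 gave 583.0, 611.5 and 680.9 against 31.5, 73.4 and 115.0, which is a smaller difference of -3.17 on the log2 scale (SE 0.21, adjusted p = 1.22e-08). GI, a large plant-specific protein of the clock and of flowering time, gave 594.0, 876.0 and 1296 in the afternoon and 155.7, 194.8 and 278.5 in the morning. Its groups were also separate, with a log2 difference of -2.15 (SE 0.178, adjusted p = 1.61e-07), the smallest of the 5 called.

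The 2 remaining genes of the list showed little difference. TIC, a clock regulator, gave 712.0, 895.8 and 1043 in the afternoon and 567.1, 651.9 and 725.7 in the morning, and passed the adjusted p with overlapping arrays (log2 difference -0.44, SE 0.0786, adjusted p = 0.000395). LKP2, an F-box protein of the ZEITLUPE family, gave 250.7, 295.4 and 329.9 against 226.3, 277.2 and 385.4. The arrays of the 2 groups were mixed, and the log2 difference was 0.01 (SE 0.113, adjusted p = 0.966).

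**Figure D2:**
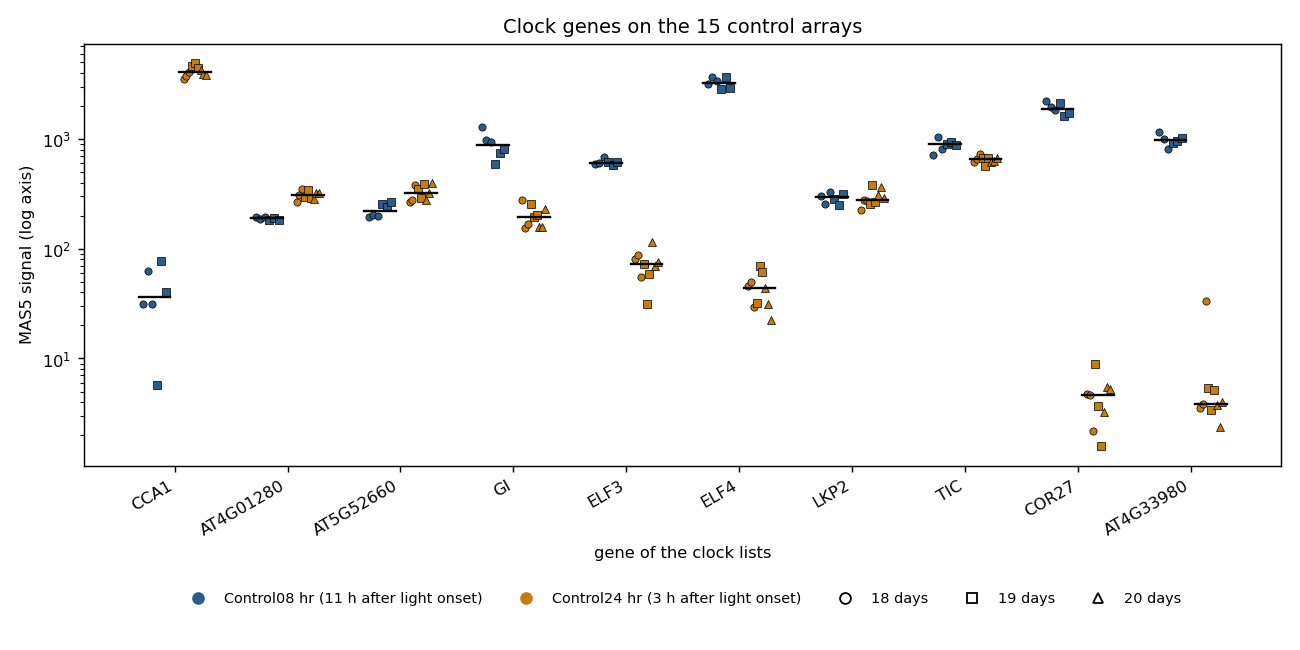
MAS5 signal on a log axis of the 10 named clock genes on each of the 15 control arrays, with Control08 hr in blue, Control24 hr in orange, the shape of a point for the age and a line at the median of each group. CCA1 rises from a median of 36.2 to 4071 towards the morning arrays, whereas ELF4 (3274 to 44.3) and COR27 (1895 to 4.6) fall, and LKP2 is mixed between groups.

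Beyond the clock lists, the 10 largest differences in each direction were taken among bright probe sets of 1 gene that passed the adjusted p and whose arrays did not overlap. Separate arrays and a low adjusted p were thus conditions of entry for every gene taken. The 2 extremes over all probe sets, 7.90 and -9.88 on the log2 scale, lie on probe sets that have no gene name here. In the afternoon direction the list held COR27, AT4G33980 and ELF4 and 7 others with log2 differences of -6.89 to -5.53. The brightest of these, AT2G33830, is annotated as dormancy-associated DRM2. It gave signals of 6341, 7847 and 9532 in the afternoon and of 42.7, 61.3 and 119.7 in the morning, so that its highest morning array remained far below its lowest afternoon array, a difference of 119.0-fold (log2 difference -6.89, SE 0.212, adjusted p = 2.27e-12). AT2G23910, annotated as a putative cinnamoyl-CoA reductase, fell from a median of 601.4 to 7.84. The other 5 were AT1G07050 (log2 difference -6.59), AT2G38465 (-6.10), AT5G62360 (-6.03), AT1G56300 (-5.97) and AT2G39920 (-5.53), with afternoon medians of 514.8 to 2576 and morning medians of 13.1 to 37.8. With 16 added to each signal the differences of the 7 were smaller, from -6.57 for AT2G33830 to -4.37 for AT2G38465. AT2G23910 and AT2G39920 stood at -4.57 and -4.41 on this scale, less than the -4.94 of COR15B, so which genes make up the list depends on how dim values are treated.

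In the morning direction CCA1 led the list, and it was followed by AT2G15020 with a log2 difference of 5.72 (medians of 23.7 and 1508) and by SAG29. SAG29 encodes the sugar transporter SWEET15, a gene known for its rise in ageing leaves. Its signals were 70.4, 89.3 and 146.9 in the afternoon and 2396, 3571 and 4386 in the morning. No arrays came near each other between the groups, and the log2 difference was 5.23 (SE 0.157, adjusted p = 1.8e-12). JMT, which methylates jasmonic acid, gave 5.15, 10.5 and 36.5 in the afternoon against 234.3, 295.6 and 364.6 in the morning (log2 difference 4.74, SE 0.343, adjusted p = 3.45e-08), and with 16 added to each signal the difference was 3.42. AT1G55960 was the brightest of the list, with medians of 288.1 and 7075 and a log2 difference of 4.67 (SE 0.0906). The others were AT1G70985 (4.99), AT1G64500 (4.65), AT2G41250 (4.54), AT1G62510 (4.45) and AT2G27420 (4.44).

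Of 18 listed photoreceptor and light signalling genes 2 were named. Both were higher in the morning by the adjusted p, as were 15.8% of all probe sets. Of the 2, 1 was called higher in the morning, as were 4.31% of all probe sets. HYH, a bZIP transcription factor related to HY5 that acts in the response to light, was the one called. It gave signals of 39.6, 58.7 and 78.2 in the afternoon and of 622.1, 690.0 and 717.1 in the morning. The morning arrays were close to one another and all above the afternoon arrays (log2 difference 3.58, SE 0.149, adjusted p = 5.74e-11). PHYB, the main red light receptor of green plants, passed the adjusted p with a small difference of 0.36 (SE 0.0572), and COP1, the ubiquitin ligase that removes light-signalling factors in the dark, with one of 0.43 (SE 0.0628). Both had separate arrays and stayed below 2-fold. Chosen after their values were seen, the F-box protein AFR of phytochrome A signalling (medians of 133.2 and 1578), RPT2 of phototropism (803.0 and 7516) and the G-box factor GBF3 (116.8 and 332.2) were higher in the morning by 3.73, 3.21 and 1.55 on the log2 scale. Another probe set of RPT2 gave 3.31 (SE 0.145). Of the flowering list, AT1G69570 was called higher in the morning (log2 difference 1.35, SE 0.19), while AGL20 (SOC1), an integrator of flowering signals, gave overlapping arrays and a difference of 0.09 (SE 0.0997, adjusted p = 0.575).

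Chlorophyll synthesis moved in both directions. Of 9 named genes, 1 was called higher in the afternoon and none in the morning (11.1% called, against 8.26% of all probe sets). By the adjusted p alone 2 were higher in the morning and 5 in the afternoon, as were 15.8% and 17.6% of all probe sets. The median log2 difference was -0.37. PORB, the light-dependent enzyme that makes chlorophyllide, gave signals of 11737, 12931 and 13962 in the afternoon and of 1202, 1407 and 1665 in the morning. It was bright at both times and its groups were far apart (log2 difference -3.18, SE 0.0833, adjusted p = 5.4e-13). AT1G74470 gave 10915, 11422 and 11674 in the afternoon and 16187, 16749 and 19580 in the morning, the opposite direction, with a difference of 0.58 (SE 0.0497). CHLM, the magnesium protoporphyrin methyltransferase, was likewise higher in the morning by 0.29 (SE 0.0543), and HEME2, which acts before the branch to heme and chlorophyll, gave -0.12 (SE 0.0657, adjusted p = 0.199) with overlapping arrays. The coproporphyrinogen oxidase gene hemf2, chosen after its values were seen, was higher in the afternoon by a log2 difference of -2.45 (medians of 163.3 and 29.4).

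The antenna proteins of photosystem II encoded by LHCB4 differed within the family. LHCB4.1 gave signals of 26160, 27154 and 29807 in the afternoon and of 26036, 28590 and 33598 in the morning, with mixed arrays and a log2 difference of 0.06 (SE 0.0669, adjusted p = 0.54). LHCB4.2 rose from 11403, 13521 and 15875 to 23601, 26794 and 29534 and LHCB4.3 from a median of 1874 to one of 3424, both without overlap and just below 2-fold (0.98, SE 0.0789, and 0.88, SE 0.0889). Genes of the Calvin cycle differed less. RCA, SBPASE and PRK were 0.32, 0.38 and 0.19 higher in the morning on the log2 scale, the first 2 of them past the adjusted p, and in all 3 the arrays overlapped. LYC, the lycopene beta-cyclase of carotenoid synthesis, was called higher in the morning at 1.04 on the log2 scale (SE 0.0743), which falls to 0.99 with age-matched arrays.

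Of 22 genes on a list of starch breakdown and debranching 4 were named, and all 4 were on the afternoon side. They passed the adjusted p, had separate arrays, and 2 were called (50%). Over all probe sets 18.5% had separate arrays and 8.26% were called. DPE1, the disproportionating enzyme that rearranges maltotriose in the chloroplast, gave signals of 2876, 2924 and 3353 in the afternoon and of 221.4, 249.1 and 318.4 in the morning. The levels were tight within each group and more than 10-fold apart (log2 difference -3.56, SE 0.0921, adjusted p = 5.15e-13). PWD, the phosphoglucan water dikinase that loosens the starch granule, gave 4907, 5103 and 5288 against 455.6, 653.9 and 714.5 (log2 difference -3.03, SE 0.0878). The beta-amylase gene BAM6 (-0.79, SE 0.113) and the debranching enzyme gene ISA1 (-0.40, SE 0.0746) had smaller differences of the same sign. A separate list of starch synthesis held APL3 and APL4, which encode subunits of ADP-glucose pyrophosphorylase, and the branching enzyme SBE2.2. They gave differences of 0.32, 0.05 and -0.04, with overlapping arrays and adjusted p of 0.113 to 0.875 in limma.

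The family of SWEET transporters was chosen after values were seen, among 15 gene families looked at, so its share of calls only describes it. Of its 16 named genes, 5 were called higher in the morning, 1 in the afternoon and 10 in neither direction. The share called was 37.5%, against 8.26% of all probe sets, and the median log2 difference was 0.35. Besides SAG29, SWEET2 of the vacuole membrane rose from 125.0, 144.3 and 158.7 in the afternoon to 867.0, 994.0 and 1128 in the morning (log2 difference 2.79, SE 0.0732). SWEET1, SWEET13 and SWEET17 were higher in the morning by 1.13, 1.10 and 1.03, close to the limit of 2-fold, and without replicate 3 SWEET13 (0.92) and SWEET17 (0.98) are no longer called. SWEET4 went the other way, with medians of 545.4 and 252.7 and a log2 difference of -1.14 (SE 0.13).

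Further genes of sugar and pyruvate metabolism named here, TPS11 apart, were chosen after their values were seen. TMT1, which loads monosaccharides into the vacuole, was higher in the afternoon, with signals of 954.7, 1040 and 1102 against 213.3, 284.1 and 314.3 (log2 difference -1.90, SE 0.0845). Its arrays did not meet those of the morning. The sugar transporter-like genes SFP1 and SFP2 were higher in the morning by 1.44 and 1.58, as was TPS11, of the trehalose phosphate synthase family, by 1.52 (medians of 254.3 and 786.2). TPS11 was 1 of 2 named genes on a list of 15. The other, EXO, was 0.92 higher in the morning (SE 0.0895) and was not called. PPDK, which makes phosphoenolpyruvate from pyruvate, gave 289.7, 337.3 and 380.1 in the afternoon and 1951, 2127 and 2366 in the morning (log2 difference 2.69, SE 0.0701). In contrast BASS2, the importer of pyruvate into the plastid, was higher in the afternoon (-1.02, SE 0.0597), and so was the pyruvate decarboxylase gene PDC2, whose median was 1130 in the afternoon and 188.6 in the morning (-2.71, SE 0.191).

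Cold-responsive genes were among the brightest of the afternoon calls although the plants were kept at 22 °C. Of the 4 named members of the cold list (15 listed), 3 were called higher in the afternoon and none in the morning (75% called, against 8.26% of all probe sets). COR15B, which encodes a small protective protein of the chloroplast, gave signals of 12808, 13947 and 16619 in the afternoon and of 290.2, 434.8 and 625.2 in the morning. The difference was 31.8-fold, and no morning array came near the afternoon arrays (log2 difference -4.99, SE 0.16, adjusted p = 3.56e-12). Its homologue COR15A gave 18457, 22751 and 25341 against 2337, 3030 and 4114, so that it remained bright in the morning (-2.84, SE 0.129). The dehydrin gene COR47 fell from 6318, 6987 and 8275 to 1372, 1722 and 2050 (-2.03, SE 0.0899). LTI30, a further dehydrin gene chosen after its values were seen, had medians of 1077 and 74.3 (-3.65, SE 0.301). STZ, a zinc finger factor of the cold list, was dim at both times, with overlapping arrays (0.55, SE 0.552, adjusted p = 0.511).

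Of 16 listed phenylpropanoid and flavonoid genes 2 were named, and both were called higher in the morning, as were 4.31% of all probe sets. C4H, which encodes the second enzyme of the pathway, gave 843.1, 895.3 and 1069 in the afternoon and 2523, 2835 and 3494 in the morning, with no overlap (log2 difference 1.67, SE 0.084, adjusted p = 4.98e-10). DFR, of anthocyanin synthesis, gave 203.2, 257.0 and 294.2 against 339.3, 501.0 and 1024 (1.09, SE 0.207), and without replicate 3 its difference of 0.98 is no longer 2-fold. Chosen after their values were seen, CHIL, a chalcone isomerase-like protein, the lignin and chlorogenate enzyme HCT and the flavonoid glucosyltransferase UGT78D2 were higher in the morning by 2.35, 1.15 and 1.16.

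Redox and nitrogen genes with morning calls were all chosen after their values were seen. Both glutathione reductases, which keep glutathione reduced, were called higher in the morning, as were 4.31% of all probe sets. GR1 of the cytosol gave 687.7, 721.9 and 787.6 in the afternoon and 2999, 3554 and 4019 in the morning (log2 difference 2.24, SE 0.0686), and GR of the plastid had medians of 2099 and 4356 (1.05, SE 0.0642). Without replicate 3 the difference of GR was 0.96, no longer 2-fold. The plastid reductase gene AOR (1.54) and VTC4, of ascorbate synthesis (1.15), had the same direction. So had genes of methionine use and polyamine synthesis, which were the methionine gamma-lyase MGL (2.14), ARD4 of the methionine salvage cycle (2.20) and SAMDC, the S-adenosylmethionine decarboxylase (1.07, with medians of 7752 and 15456). Asparaginase ASPGB1 (1.64), allantoate amidohydrolase AAH (1.71) and GLDP2, a glycine decarboxylase subunit of photorespiration (1.66), release or pass on ammonia and were also higher in the morning. On the lists the differences were smaller. Of 15 listed genes of nitrogen assimilation 2 were named and none was called. AT1G68670 was 0.57 higher in the morning (SE 0.0475), and GLU2 gave 0.15 with overlapping arrays (SE 0.124, adjusted p = 0.422). Sulfate and glucosinolate genes had 4 named members with none called. Of these, 3 were higher in the morning by the adjusted p, as were 15.8% of all probe sets. APK, the adenylylsulfate kinase, led them at 0.65 (SE 0.0833).

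Hormone genes were called in both directions. On the growth list of 4 named genes, GH3.3, which joins auxin to amino acids, was the only call, at a dim level with overlapping arrays (medians of 34.7 and 84.3, log2 difference 1.45, SE 0.488, adjusted p = 0.0325). The expansin EXPA8 and the factor HAT2 were 0.64 and 0.85 higher in the morning with separate arrays. IAA29, an auxin-response repressor, was dim, with overlapping arrays and a difference of -1.03 that missed the adjusted p (SE 0.385, adjusted p = 0.0531). It was called under quantile normalization (-1.02), with an intensity trend (-1.03) and without replicate 1 of the 18-day and replicate 2 of the 19-day morning plants (-1.27). The following genes were chosen after their values were seen. GID1A, a gibberellin receptor, gave 482.3, 493.8 and 539.6 in the afternoon and 74.6, 106.3 and 137.0 in the morning, with all morning arrays lower (log2 difference -2.24, SE 0.132). On the morning side were the auxin glucosyltransferase IAGLU (2.23), the cytokinin glucosyltransferase UGT76C2 (1.14), the cytokinin response regulator ARR15 (1.91), the abscisic acid receptor PYL2 (1.51), the strigolactone synthesis gene CYP711A1 (1.46) and the jasmonate factor MYC4 (1.28). PYL4, a related receptor on the abscisic acid list, gave 0.17 with overlapping arrays (adjusted p = 0.188).

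Cell wall and cytoskeleton genes, also chosen after their values were seen, were called in both directions. The families were picked with their calls known, among 15 gene families looked at, so their shares of calls only describe them. Of 12 xyloglucan endotransglucosylases, 4 of them bright, 3 were called higher in the morning and none in the afternoon (25% called, against 8.26% of all probe sets). Among them XTH32 gave 793.4, 1039 and 1159 against 3853, 4400 and 5050 (log2 difference 2.13, SE 0.0852) and EXGT-A3 medians of 972.9 and 2765 (1.42). The other call, XTH19, was dim with overlapping arrays (medians of 5.88 and 52.8). The beta-expansin EXPB1 (1.48) and the pectin methylesterase PMEPCRF (1.67) were higher in the morning as well. Of 22 expansins 1 was called in each direction, and this share of 9.09% is near the 8.26% of all probe sets. The 7 named tubulin genes all had separate arrays, against 18.5% of all probe sets, yet not in one direction, and 42.9% of them were called. TUA1 was called higher in the morning (1.34, SE 0.0579), TUB5 and TUB9 were called higher in the afternoon (-2.22, SE 0.0711, and -1.03, SE 0.0467), and 6 of the 7 were higher in the afternoon by the adjusted p. TUB5 gave signals of 2351, 2531 and 2839 in the afternoon and of 473.0, 531.1 and 644.0 in the morning. Of 5 named LIM proteins, which bundle actin, 2 were called higher in the afternoon and 1 in the morning (60% called, against 8.26% of all probe sets). WLIM2a and WLIM1 had medians of 1639 and 3408 in the afternoon and of 214.6 and 871.4 in the morning (-2.86 and -1.90), and PLIM2a rose from a median of 28.1 to one of 99.4 in the morning (1.74, SE 0.209).

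Transcripts of several chloroplast proteins encoded in the nucleus were higher in the afternoon, and these genes were chosen after their values were seen. OEP16-1, a channel of the outer envelope, gave 13285, 13991 and 15374 in the afternoon and 863.1, 1001 and 1249 in the morning. Both levels were well measured and 14.2-fold apart (log2 difference -3.83, SE 0.0754, adjusted p = 5.97e-14). The chloroplastic lipocalin CHL (medians of 5300 and 887.2), the protein PIFI (14081 and 5675) and CRR6, which serves the assembly of the NDH complex (2337 and 1136), had the same direction with differences of -2.63, -1.33 and -1.02. THIC, the first enzyme of the pyrimidine branch of thiamin synthesis in the plastid, gave medians of 9603 and 1883 (-2.29, SE 0.0844). The thylakoid phosphate transporter PHT4;1 was higher in the morning (1.19, SE 0.0596). Of the 69 named genes encoded in the chloroplast itself none was called, with 7 higher in the morning and 1 in the afternoon by the adjusted p, with a median log2 difference of 0.05 and a range from -0.52 to 0.34. Their brightest members atpB, atpE and psaB gave 0.08, 0.07 and 0.04 with overlapping arrays. Of the 11 named genes of the mitochondrial genome none was called, and cox1 was lower in the morning by the adjusted p (-0.49, SE 0.116).

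Large differences were also present outside these groups, in genes chosen after their values were seen. CCL gave 20080, 23395 and 25061 in the afternoon and 2089, 2597 and 3138 in the morning (log2 difference -3.16, SE 0.0911). Fes1B, related to a nucleotide exchange factor of HSP70, and the phospholipase PLA2-ALPHA had medians of 1067 and 2009 in the afternoon and of 134.3 and 196.4 in the morning (-3.08 and -3.40). TRY, an R3 MYB protein that limits trichome formation, rose from 39.2, 49.7 and 62.9 to 507.8, 646.9 and 813.5 in the morning (3.70, SE 0.119). LURP1, a gene of pathogen defence, gave 4314, 5988 and 7277 in the afternoon and 76.6, 138.9 and 1778 in the morning. The groups were separate (-4.95, SE 0.559, adjusted p = 4.72e-06), but 1 morning array was far above the other 8, whose highest was 371.9. It was replicate 1 of the 18-day plants, the array on which the defence gene PR1 gave 3598 and the other 14 at most 209.0. Without this array and replicate 2 of the 19-day morning plants, which also stood apart on lower principal components, LURP1 had a log2 difference of -5.38, and 927 probe sets were called higher in the morning and 954 in the afternoon.

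**Figure D3:**
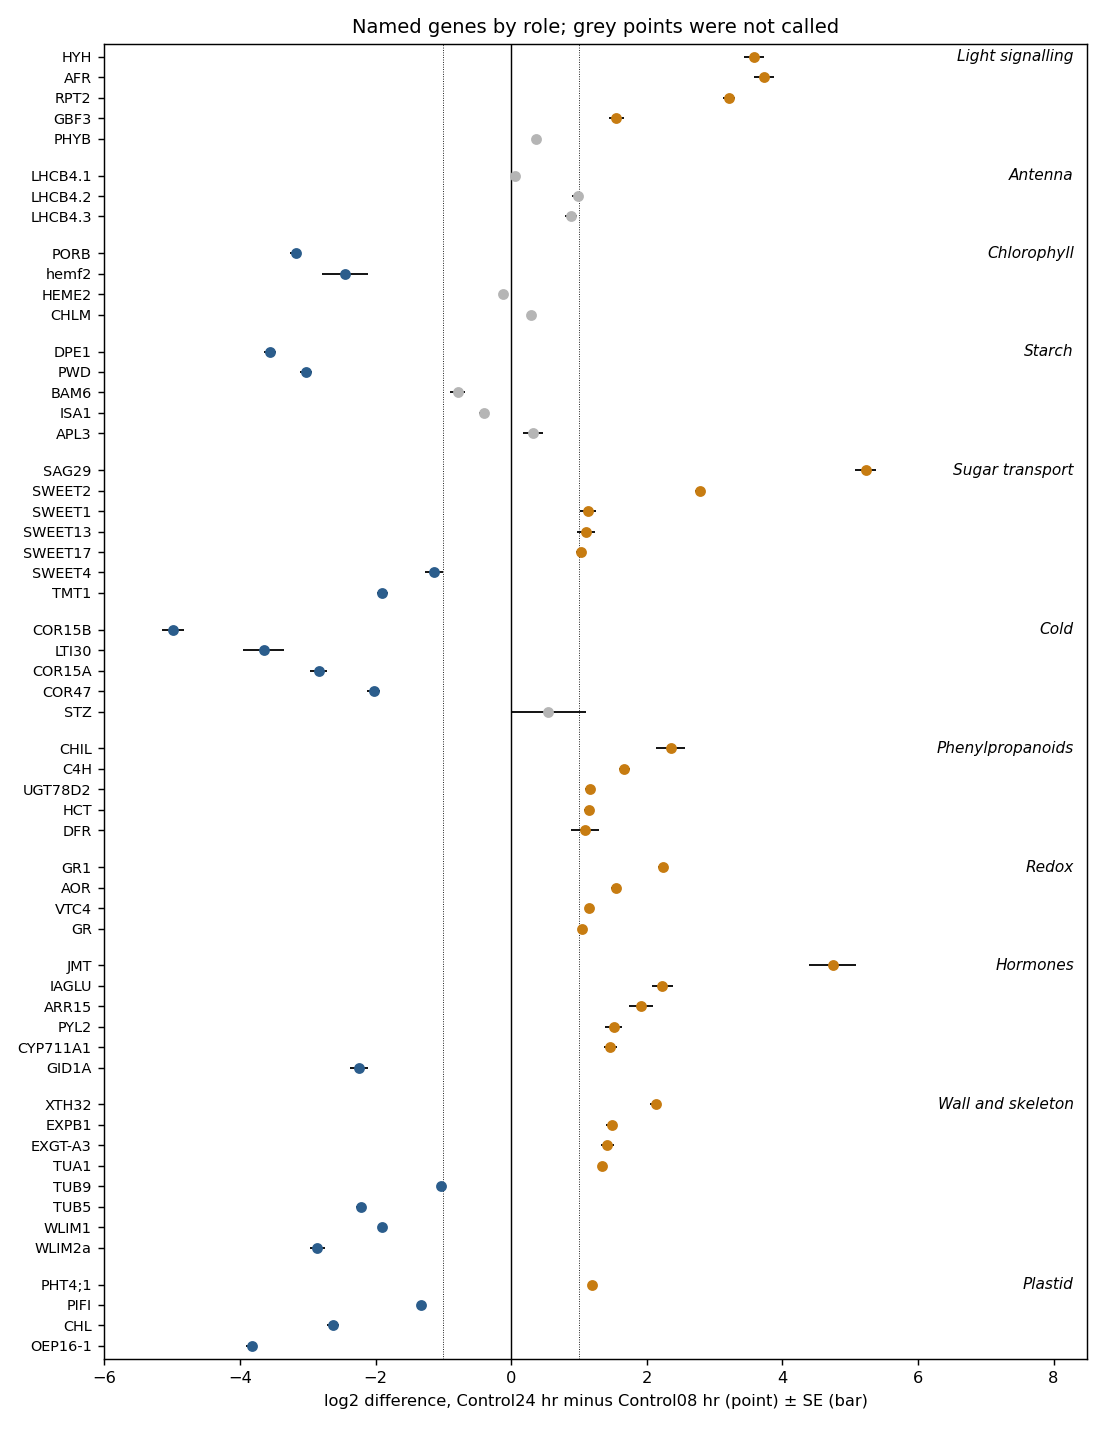
Log2 difference between Control24 hr and Control08 hr (point) with its SE (bar) for named genes grouped by role, where orange genes were called higher in the morning, blue ones higher in the afternoon and grey ones were not called, and dotted lines mark 2-fold. DPE1, PWD, BAM6, PORB and the cold genes except STZ lie to the left, with COR15B at -4.99. Phenylpropanoid and redox genes lie to the right, with CHIL at 2.35 and GR1 at 2.24.

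Genes of lipid metabolism, taken from the table of glycerolipid genes by group, were called in both directions. Phospholipid synthesis outside the plastid had 46 probe sets, of which 4 were called higher in the morning and 5 in the afternoon (19.6% called, against 8.26% of all probe sets). MIPS2, which makes inositol phosphate, had the largest difference, with signals of 183.1, 260.5 and 396.8 in the afternoon and of 2081, 2755 and 3181 in the morning (log2 difference 3.32, SE 0.15, adjusted p = 1.47e-10). PECT1, the CTP-dependent enzyme of phosphatidylethanolamine synthesis, gave 1480, 1734 and 1829 in the afternoon and 454.3, 559.1 and 687.3 in the morning, without overlap (log2 difference -1.61, SE 0.0898). CDS1, which makes CDP-diacylglycerol, had the same direction (-1.42), while AAPT2, an aminoalcohol phosphotransferase, and MIPS1, related to MIPS2, were higher in the morning (1.53 and 1.21). FAD2, the desaturase of the endoplasmic reticulum, was bright at both times, with medians of 10177 and 6914 and separate arrays (-0.57, SE 0.0581). In the groups of triacylglycerol synthesis (40 probe sets), plastidial glycerolipids (36) and plastidial fatty acid synthesis (32), 3, 3 and 0 were called higher in the morning and 1, 0 and 1 in the afternoon. These shares of 10%, 8.33% and 3.12% lie near or below the 8.26% of all probe sets. TAG1, the diacylglycerol acyltransferase of the last step to triacylglycerol, gave 629.8, 746.4 and 799.4 in the afternoon and 75.7, 93.7 and 115.2 in the morning, with no overlap (log2 difference -2.96, SE 0.0914, adjusted p = 2.34e-12). RD20, a caleosin of lipid droplets, rose from 571.8, 705.2 and 753.3 to 2961, 3648 and 5200 in the morning (2.51, SE 0.121). The galactolipid synthase gene DGD1 was higher in the morning, with medians of 526.8 and 1913 (1.80, SE 0.0736), and the lipoyl enzyme gene AT4G31050 fell from a median of 258.7 to 79.5 (-1.81).

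Of 42 probe sets of triacylglycerol breakdown, beta-oxidation and the citrate and glyoxylate cycles, none was called higher in the morning and 2 in the afternoon. This share of 4.76% is below the 8.26% of all probe sets. By the adjusted p 8 were higher in the morning and 16 in the afternoon, as were 15.8% and 17.6% of all probe sets. LACS6, the peroxisomal acyl-CoA synthetase, gave 2106, 2337 and 2444 in the afternoon and 547.2, 621.1 and 900.3 in the morning (-1.81, SE 0.112). The photorespiratory reductase HPR and the peroxisomal malate dehydrogenase PMDH2, the brightest of this group, gave 0.38 and 0.22 in the other direction. Of 13 probe sets of elongation, desaturation and export from the plastid, 1 was called in each direction (15.4%, against 8.26% of all probe sets). They were stearoyl-ACP desaturase genes, SSI2 higher in the morning (1.10, SE 0.0562) and AT3G02630 in the afternoon (-1.07, SE 0.0884), and the latter falls to -0.99 with age-matched arrays. None of 6 trafficking genes was called. The 13 miscellaneous lipid genes and phytyl ester synthases had 2 morning and 3 afternoon calls (38.5%, against 8.26% of all probe sets). The acyl desaturase genes ADS2 and ADS1 were called in opposite directions, ADS2 with medians of 3071 and 629.2 (-2.25, SE 0.0906) and ADS1 with medians of 606.9 and 1878 (1.58, SE 0.0823). The other afternoon calls were PES1 (-1.37, SE 0.299) and ACA.l, annotated as a translocating ATPase (-1.61, SE 0.155). KCS8, a fatty acid elongase, was higher in the afternoon as well (-1.81, SE 0.0895). Among these lipid genes CDS1, AAPT2, MIPS1, PES1, ACA.l and KCS8 were chosen after their values were seen.

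Of 10 named genes of the cytosolic ribosome none was called, but 8 were higher in the morning by the adjusted p, as were 15.8% of all probe sets. Their median log2 difference was 0.33. PGY1, for example, gave 5301, 6094 and 6487 in the afternoon and 7093, 7622 and 8978 in the morning, with separate arrays (0.35, SE 0.0629). Of 18 listed heat shock genes 5 were named and none was called, and only 1 of the 5, AT5G37670, was bright. ATHSP22.0, AT1G53540 and AT5G51440 were dim at both times, with medians of 28.8 to 57.1 and overlapping arrays, and AT5G37670 was higher in the afternoon by the adjusted p, with separate arrays (medians of 162.7 and 92.8, -0.97, SE 0.151). Its difference of 1.96-fold lay just under the limit, and with age-matched arrays it was called (-1.01).

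The same difference was measured apart in plants of 18 and of 19 days, with 3 arrays against 3 in each. At 18 days 1478 probe sets (6.50%) were called and at 19 days 1629 (7.16%). Of those called at 18 days, 1413 had the same direction at 19 days and 1098 (74.3%) were also called there, which is 67.4% of the calls at 19 days. Across bright probe sets the 2 sets of log2 differences had a Pearson r of 0.94, given as a description, since genes are not independent replicates. CCA1 had a log2 difference of 6.58 at 18 days and 7.48 at 19 days, COR27 of -9.10 and -8.92, and GI of -2.46 and -1.72. A test of the interaction of age and clock time called no probe set in limma. An unadjusted p under 0.05 was reached by 1041 of 22746 probe sets. This is fewer than the 1 in 20 that pass this limit where no interaction is present. A single probe set was called in opposite directions at the 2 ages, though not in the interaction, and it is named after its values were seen. It is that of AT1G43745, whose log2 difference was -3.15 at 18 days (SE 0.499, adjusted p = 0.0187) and 1.19 at 19 days (SE 0.172, adjusted p = 0.0129).

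**Figure D4:**
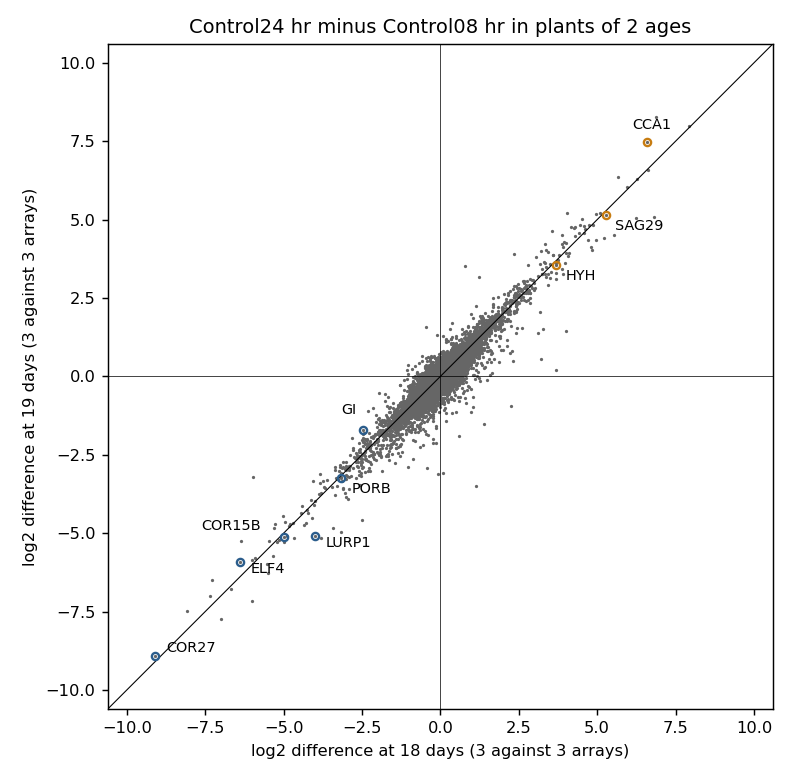
Log2 difference between Control24 hr and Control08 hr at 19 days (y axis) against that at 18 days (x axis), 3 arrays against 3 in each, for bright probe sets, with the line of equal differences. The points follow the line (Pearson r 0.94), with COR27 at -9.10 and -8.92 and SAG29 at 5.29 and 5.14.

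Finally, the same clock times were compared in treated plants, in which both the length of the treatment and the age of the plants differ with the clock time. These cannot be told apart here. The harvest was at 11 h of light for Heat08 hr and Recovery08 hr and at 3 h for Heat24 hr and Recovery24 hr, and each of these groups has 3 arrays. At Heat24 hr 1068 probe sets (4.70%) were called higher than at Heat08 hr, and among them 1 of the 10 clock genes, while 1628 (7.16%) were called lower, with no clock gene among them. CCA1 gave 184.6, 185.4 and 207.8 on the Heat08 hr arrays and 115.7, 147.7 and 177.5 on the Heat24 hr arrays, so the morning rise of the control plants was not seen there (log2 difference -0.41, SE 0.189, adjusted p = 0.187). COR27 gave 2009, 2325 and 2385 against 2222, 2956 and 2999 and was thus high at both times (0.27, SE 0.17, adjusted p = 0.309). ELF4 was the clock gene called, with 473.3, 500.8 and 521.1 at Heat08 hr and 1513, 1525 and 1699 at Heat24 hr (1.66, SE 0.114, adjusted p = 0.00243), the opposite direction to the controls. With 3 arrays against 3 the call is lost without replicate 1 (adjusted p = 0.0983) or replicate 2 (adjusted p = 0.0762) in limma.

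At Recovery24 hr 1383 probe sets (6.08%) were called higher than at Recovery08 hr, again with 1 of the 10 clock genes, and 1130 (4.97%) were called lower, with none. GI gave 27.1, 29.8 and 39.2 at Recovery08 hr and 638.0, 718.6 and 774.8 at Recovery24 hr. It was the gene called (4.48, SE 0.208, adjusted p = 0.0118), and its direction was opposite to that in the control plants. The call is lost with the replicate number as a block (4.48, adjusted p = 0.0666) and, in limma, without replicate 1 (adjusted p = 0.159) or replicate 2 (adjusted p = 0.202), where the difference was 4.71 and 4.38. CCA1 gave 2402, 2684 and 2745 at Recovery08 hr and 726.7, 884.1 and 1644 at Recovery24 hr, with the higher signals in the afternoon (-1.36, SE 0.334, adjusted p = 0.0508). PORB and DPE1, which were bright in the afternoon in controls, had means of 483.0 and 75.4 at Recovery08 hr and of 5770 and 1052 at Recovery24 hr (3.51, SE 0.328, and 3.95, SE 0.533). In the heat arrays both kept the direction of the controls (-2.94, SE 0.101, and -1.19, SE 0.201). PORB and DPE1 were added to this comparison after their values were seen.

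The difference itself was tested as an interaction of clock time and treatment in limma, with the 15 control arrays in both fits. An interaction passed the adjusted p in 8173 probe sets (35.9%) for heat and in 8884 (39.1%) for recovery. Of the 10 clock genes 7 passed for heat and 8 for recovery. The largest was that of COR27, 9.18 (SE 0.501) with heat and 8.83 (SE 0.644) with recovery on the log2 scale, and that of CCA1 was -7.42 (SE 0.692) and -8.36 (SE 0.711). LKP2 and TIC passed in neither (adjusted p of 0.542 to 0.858). Since the control difference enters every interaction, the 2 sets of values are not independent of each other or of the control comparison.

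**Figure D5:**
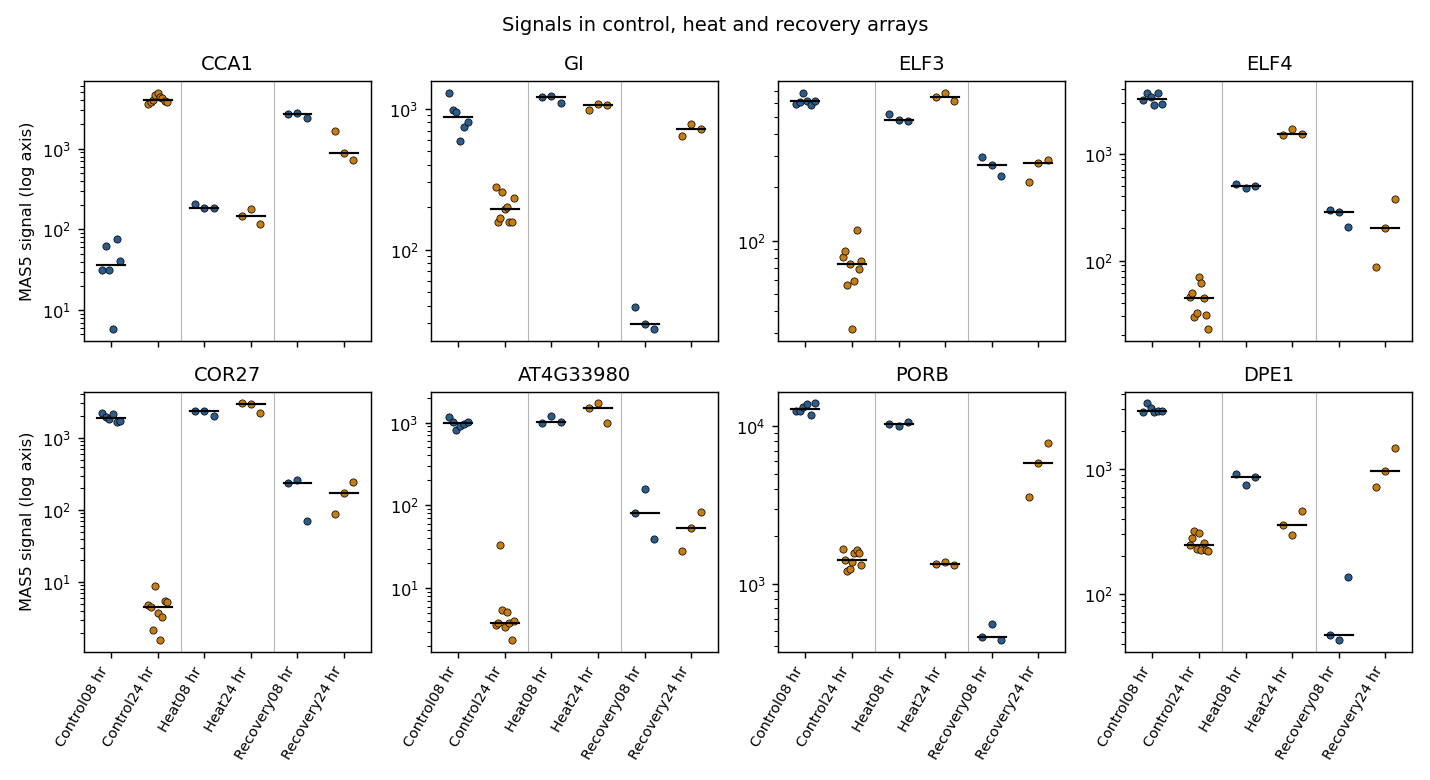
MAS5 signals on log axes of 6 clock genes, PORB and DPE1 on all 27 arrays, with groups harvested 11 h after the onset of light in blue, those harvested 3 h after it in orange and a line at each median. The control steps of CCA1, GI and COR27 are not seen in the heat arrays (log2 differences of -0.41, -0.18 and 0.27), and in the recovery arrays GI, PORB and DPE1 are higher in the morning.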

How the data were processed

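The deposited table holds 1-colour Affymetrix ATH1 signal intensities, which the authors made by MAS5 summary in GeneSpring. They are linear, have a lowest value of 1 and a 2% trimmed mean of 494.8 to 495.6 on each control array, and hold no detection calls, so dim values are poorly defined. From these values log2 of the signal was computed and compared by lmFit and eBayes of limma 3.58.1 under R 4.3.3 (two-sided, with Benjamini-Hochberg adjustment over all 22746 probe sets), with the 2 control groups in the fit and ages pooled. A call needed an adjusted p under 0.05 and at least 2-fold.

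Of the probe sets, 14375 were named with 1 gene (14203 genes) from the platform annotation and the supplementary tables, and 8371 with several or none stayed in the tests without a name. The columns of the authors' own comparisons were not used. Where a gene had several, its brightest probe set was taken. Named are the members of the clock lists, the 10 largest differences each way among probe sets with 1 gene, no overlap and a mean of at least 100, and up to 4 members of each other list, by call and then by mean signal. Of the glycerolipid groups only some of these are named. Other genes are marked. The comparison, its members and its gene lists were chosen with earlier results of these data known. Lists with fewer than 5 named members were not recomputed under the alternatives, and not all of them are given with that number. No flower or cell division gene of the lists was named. Precision is limited by the number of arrays, labelled as biological replicates. Python 3.11.15 (pandas 2.3.3, numpy 2.4.6, matplotlib 3.10.9) was used for counts and figures.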

Additional observations from a re-analysis of the deposited data

Results flagged for a closer look

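Among the named genes, each group of control arrays was searched for a single array far from the rest of its group by Dixon's test, which chance passes in about 1 of 20 groups. It was passed by 20 of 338 pairs of gene and group (5.92%). In Control24 hr, replicate 1 of 18 days held 3 of them: PR1 at 3598 (next 209.0), LURP1 at 1778 (next 371.9) and GLDP2 at 3666, below the next lowest of 4499. The others in this group were AT4G33980 at 33.1 on replicate 3 and AT2G23910 at 33.1 on replicate 2 of 18 days, AT1G74470 at 19580 and PGY1 at 8978 on replicate 2 of 19 days, and EXPA8 at 4875 and ABI3 at 48.3 on replicate 3 of 20 days.

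In Control08 hr, replicate 3 of 18 days held 4, ELF3 at 680.9, PIFI at 16291, AT1G64500 at 45.4 and COP1 at 491.0, the last 2 lowest in their group. Replicate 2 of 19 days held IAGLU at 287.0, and as the lowest array APL3 at 228.2, PMEPCRF at 295.2 and WLIM1 at 2917. The remaining ones were TUB9 at 2378 on replicate 1 of 18 days, AT2G23910 at 510.4 on replicate 1 and JMT at 36.5 on replicate 3 of 19 days. In none of the called genes among these did the 2 groups overlap.

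The difference between clock times in treated plants departed from that of control plants, by the interaction in limma, in the following clock genes, on the log2 scale. With heat it was -7.42 for CCA1, -0.94 for AT4G01280, 1.97 for GI, 3.56 for ELF3, 8.00 for ELF4, 9.18 for COR27 and 8.00 for AT4G33980. With recovery it was -8.36 for CCA1, -1.54 for AT4G01280, -1.39 for AT5G52660, 6.63 for GI, 3.13 for ELF3, 5.87 for ELF4, 8.83 for COR27 and 6.97 for AT4G33980.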

How the results depend on the processing

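The count of 1878 calls (981 in the morning, 897 in the afternoon) lay between 1458 and 1902 over the other normalizations, covariates, samples, variance model and filter tried, and kept within 1.5 times the reported count in each direction. Only the limit on the fold moved it further, to 7588 (3590 and 3998) with the adjusted p alone and to 3654 (1784 and 1870) at 1.5-fold. Median centring, which shifts the median difference of all probe sets from 0.01 to 0.05, gave 1059 and 832. Leaving out single arrays gave 1798 to 1887 calls, and leaving out all arrays of one replicate number 1721 to 1847. The deviations of same-numbered arrays were weakly correlated, from -0.05 to 0.17, with 9 of 30 correlations over 0.1. The numbers were not taken to pair the samples in the main fit, and whether same-numbered arrays share a batch was not tested. The replicate block gave 1864 calls (973 and 891), 677 at 18 days and 877 at 19 days, and none of the clock genes in recovery.

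With 3 arrays against 3 the calls depend on each array. Without one replicate number 0 to 354 remained at 18 days and 0 to 501 at 19 days, 0 to 1 clock genes in heat and 0 to 2 in recovery. The fewer arrays leave 2 against 2. The interaction with age gave 1 probe set with 16 added to each signal. In gene lists, age-matched arrays gave 1 afternoon call for heat shock genes, 0 for elongation, desaturation and export, and 1 morning call for triacylglycerol breakdown, and quantile normalization and median centring each gave 1 morning call for plastidial fatty acid synthesis. Of 109 named genes that were called, 99 stayed called under every alternative tried, and no called difference changed sign. The other 10 were GH3.3, which was dim, and LYC, DFR, SWEET13, SWEET17, BASS2, GR, TUB9, CRR6 and AT3G02630. Promoter motifs were planned and not run, as no sequence was used here.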
